A study of Homo sapiens with 4 samples.

Results

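MDM2 encodes the ubiquitin ligase that marks the tumour suppressor p53 for degradation. The peaks described here are stretches of RNA at the MDM2 locus that were recovered with the RNA-binding protein HuR over control immunoglobulin (IgG). The locus is chr12:69201950-69244632 of the genome build hg19, 42683 bp long. Its members were chosen by position, as every peak of either peak list that overlaps the locus by at least 1 bp. They are 15 of the 47930 peaks at 0 Gy and 11 of the 36216 peaks at 5 Gy, or 26 of 84146 in all. The locus itself was selected on values measured in these lists, its peak number and covered length at each dose. All values below therefore describe these peaks, and none of them is a test.

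RNA immunoprecipitation sequencing was carried out on WS1, an established line of human skin fibroblasts, given X-rays at a dose of 5 Gy or left unirradiated (0 Gy). At each dose there was 1 HuR library and 1 IgG library, 4 in all, so each dose is represented by 1 immunoprecipitation of 1 cell line and no difference between the doses has a replicate check. The time after irradiation is not given in the sources used here, and the line was not checked against fibroblast markers. The HuR library of each dose was compared by the authors with the IgG library of that dose, which gave 1 list of peaks per dose. The score of a peak is the authors' own, from their deposited lists. No peak of either list scores below 60, and many strong peaks are tied at 3100. It grows with read depth, which is unknown for these libraries, so the level of a score at one dose is not directly comparable with that at the other. The lists carry no strand and no gene names, and no hg19 annotation was used, so peaks are placed by their distance from the start of the locus and not by exon, intron or UTR. More MDM2 RNA in the cells and more HuR on each MDM2 RNA molecule cannot be told apart in these lists.

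MDM2 and p53 form a feedback loop. DNA damage stabilises p53, p53 switches on MDM2 from an internal promoter, and the MDM2 protein then returns p53 to a low level. HuR, encoded by ELAVL1, binds U-rich and AU-rich stretches of RNA and is known for stabilising many short-lived mRNAs, and it also binds within introns of unspliced transcripts.

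The internal promoter is shown here because it is the textbook route from radiation to MDM2 RNA. The RefSeq promoter windows (GRCh38.p14, 300 bp each, plus strand) list 4 MDM2 start sites, of which the third lies 845 bp downstream of the first. The windows were searched for the p53 response element, as its 20 bases of 2 half-sites without a spacer, a consensus that reads the same on both strands. The window of the third start held 2 matches with at most 3 mismatches, at chr12:68808923-68808942 and chr12:68808961-68808980 of GRCh38. Capitals mark bases that match the consensus, and lower case marks mismatches.
MDM2 element 1: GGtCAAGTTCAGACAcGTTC
MDM2 element 2: AGttAAGTCCtGACTTGTCT
Element 1 begins 94 bases before the third start and has 2 mismatches. Element 2 begins 56 bases before it and has 3. Of all 35116 promoter windows, 0.649% held a match with at most 2 mismatches and 5.20% one with at most 3. The peak lists measure RNA and not p53 on DNA, and these positions are of another build than the peaks and were not set against them.

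The MDM2 locus carried fewer, longer peaks at 5 Gy that together covered more of it. Peaks covered 25517 bp at 0 Gy and 34836 bp at 5 Gy, a ratio of 1.37. As a share of the locus this was 59.7% at 0 Gy and 81.5% at 5 Gy. MDM2 peaks averaged 1701 bp in length (median 578 bp) in the unirradiated cells and 3167 bp (median 1244 bp) after irradiation. Fewer and longer peaks were not particular to MDM2. Among all peaks, the median length was also greater after irradiation, 559 bp against 448 bp in unirradiated cells. The ratio of peak numbers was close to that at MDM2 (0.756 over the lists, 0.733 at the locus). Covered length did differ in direction, with a 5 Gy over 0 Gy ratio of 0.917 over the whole lists.

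The 0 Gy peaks of MDM2 lay inside the 5 Gy peaks almost to the base. Of the 25517 bp covered at 0 Gy, 25516 bp were also covered at 5 Gy, and 1 bp was not. That 1 bp is the gap between 5 Gy peaks 3 and 4, which abut. A further 9320 bp, or 26.8% of the length at 5 Gy, were covered at 5 Gy alone. Over the whole lists, 67.5% of the 0 Gy length was also covered at 5 Gy. At MDM2 14 of 15 peaks of the 0 Gy list were covered over their whole length at 5 Gy, against 19.9% of all 0 Gy peaks. The list share was not matched for score, and the median 0 Gy score was 136.64 in the list and 806.35 at MDM2. None of the 11 MDM2 peaks at 5 Gy was wholly covered at 0 Gy.

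**Figure D1:**
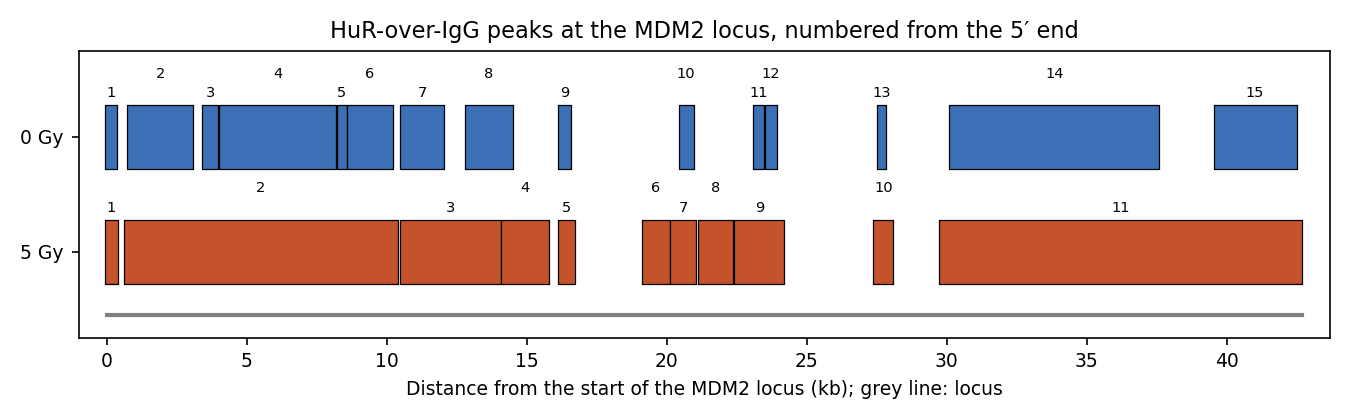
Position of each peak at the MDM2 locus, as distance in kb from the start of the locus (grey line), for the 0 Gy list (blue, 15 peaks) and the 5 Gy list (red, 11 peaks), numbered from the 5′ end. Every blue bar lies above red, except 1 bp between 5 Gy peaks 3 and 4, and several blue bars lie above a single red one.

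At the 5′ end of the gene a short peak stood alone at both doses. It ran from chr12:69201898-69202329 at 0 Gy (432 bp, score 1328.34) and from chr12:69201881-69202361 at 5 Gy (481 bp, score 1945.24). The starts lay 17 bp apart and the ends 32 bp apart. A stretch of 196 bp after it, chr12:69202362-69202557, was covered at neither dose. The second peak began 774 bp after the start of the first at 0 Gy and 677 bp after it at 5 Gy.

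Behind that gap lay the first of the long covered stretches. At 0 Gy it was divided into 5 peaks, numbers 2 to 6 from the 5′ end. They measured 2379, 578, 4203, 371 and 1617 bp, with scores of 3100, 459.72, 2583.80, 139.27 and 1813.18. The gaps between them were 314, 10, 19 and 8 bp, so most of these peaks were nearly touching. At 5 Gy the same stretch was 1 peak of 9794 bp, chr12:69202558-69212351, with the tied score of 3100. It added 646 bp to the 9148 bp covered at 0 Gy, and thus was a change in how the stretch was divided more than in how much was covered. Of all 5 Gy peaks, 32 (0.0884%) lay over at least 5 peaks of the 0 Gy list.

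The next stretch, 10.5 to 15.8 kb into the locus, gained more length. At 0 Gy it held peak 7 (chr12:69212442-69213996, 1555 bp, score 938.70) and peak 8 (chr12:69214750-69216455, 1706 bp, score 806.35), with 753 bp between them. At 5 Gy it held peak 3 (chr12:69212421-69216042, 3622 bp, score 3100) and peak 4 (chr12:69216044-69217737, 1694 bp, score 733.16). The near edge moved by 21 bp and the far edge lay 1282 bp further downstream at 5 Gy. Peaks covered 3261 bp of this stretch at 0 Gy and 5316 bp at 5 Gy, a ratio of 1.63.

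The middle of the locus was the sparsest part at both doses and gained most in proportion. It held short peaks at 0 Gy, numbers 9 to 13. Peak 9 (chr12:69218092-69218544) was 453 bp long and faced a 5 Gy peak of 592 bp whose start differed by 10 bp. Peak 10 (chr12:69222381-69222923) was 543 bp long and faced a 5 Gy peak of 922 bp. Around the latter, the 5 Gy list had 2 peaks with no counterpart, chr12:69221063-69222063 (1001 bp, score 165.33) and chr12:69223083-69224326 (1244 bp, score 123.58). These 2 were the lowest-scoring peaks of the locus at 5 Gy and the only ones there without a 0 Gy peak. Together they made up 2245 bp of the length found at 5 Gy alone, and the other 7075 bp (75.9%) belonged to peaks that overlapped a 0 Gy peak.

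Peaks 11 and 12 of the 0 Gy list had the lowest scores of the locus at that dose. Peak 11 (chr12:69225046-69225436, 391 bp) scored 61.73, just above the lowest score of the list, and peak 12 (chr12:69225452-69225915, 464 bp) scored 119.63. They lay 15 bp apart, and both fell inside 1 peak of 1808 bp at 5 Gy, chr12:69224356-69226163, with a score of 480.56. Peak 13 (chr12:69229451-69229796) was the shortest at 346 bp but scored 1054.67. It faced a 5 Gy peak of 722 bp with a score of 1473.88. On either side of this pair lay 2 of the longest stretches covered at neither dose, 3161 bp at chr12:69226164-69229324 and 1630 bp at chr12:69230047-69231676. Another, of 2389 bp, lay at chr12:69218674-69221062. In total 7915 bp of the locus, in 9 stretches, were covered at neither dose.

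The 3′ end of the gene held the longest peak at each dose. At 0 Gy, peak 14 covered chr12:69232035-69239552 (7518 bp, score 3100), and peak 15 covered chr12:69241486-69244446 (2961 bp, score 714.97), with 1933 bp between them. At 5 Gy the gap was filled and 1 peak ran over the whole 3′ end, chr12:69231677-69244632, 12956 bp with a score of 3100. By length it ranked 6 of 36216 in the 5 Gy list, whose longest peak measured 18027 bp. The 0 Gy peak 14 had length rank 90 of 47930. The 5 Gy peak began 358 bp before the first 0 Gy peak and ended 186 bp after the last, and it added 2477 bp to the 10479 bp covered at 0 Gy. Peaks of at least 4 kb made up 45.9% of the covered length of MDM2 at 0 Gy (2 peaks) and 65.3% at 5 Gy (2 peaks). In the whole lists, 2.13% of the peaks at 0 Gy and 2.99% at 5 Gy were that long.

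**Figure D2:**
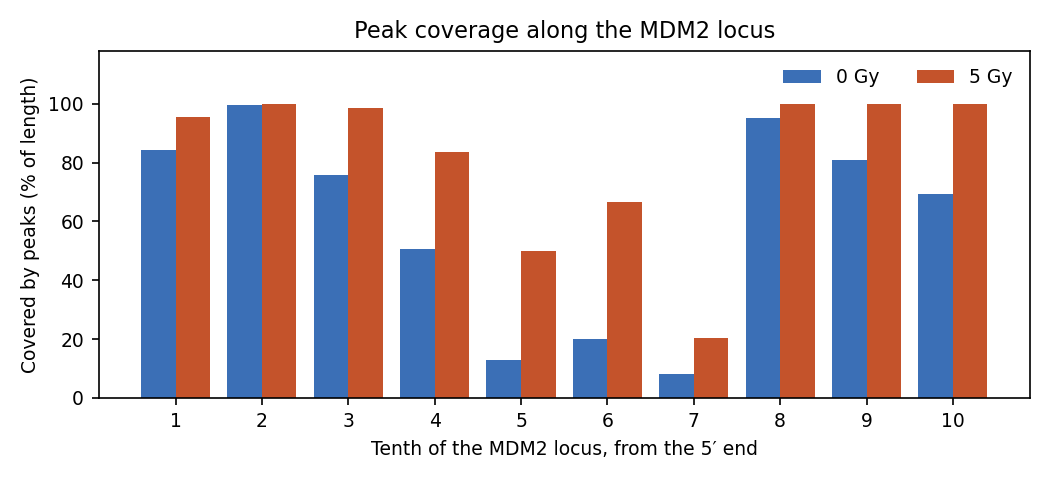
Share of each of 10 equal segments of the MDM2 locus covered by peaks, in percent of the segment's length, at 0 Gy (blue) and 5 Gy (red), numbered from the 5′ end. Coverage was higher at 5 Gy in each segment, and segments 5 to 7 were the least covered at both doses.

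Cut into 10 equal segments, the locus was densely covered at its ends and sparsely in segments 5 to 7 at 0 Gy, and at 5 Gy the middle was still the least covered part. Segments 1 to 3 at the 5′ end were covered to 84.4%, 99.6% and 75.8% at 0 Gy, and to 95.4%, the full length and 98.4% at 5 Gy. Segment 4 was covered to 50.5% and 83.7%. Of segments 5, 6 and 7 in the middle, each about 4268 bp long, peaks covered 543, 855 and 346 bp at 0 Gy, and 2132, 2843 and 873 bp at 5 Gy. Segments 8 to 10 at the 3′ end were covered to 95.1%, 81.0% and 69.4% at 0 Gy and in full at 5 Gy. The last base of the locus is also the last base of the 5 Gy peak there. Full cover of segment 10 thus depends on where the locus was cut. The difference was largest in segment 6, at 1988 bp, and smallest in segment 2, at 19 bp, where little was left to cover.

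The edges of the peaks lay further out at 5 Gy at both ends of each block. Peaks that overlapped or adjoined across the lists formed 8 blocks with both doses, and in 8 of these 8 the 5 Gy peaks began before and ended after the 0 Gy peaks. Across all blocks of the 2 lists this held for 30.5%, and the opposite, with 0 Gy reaching further at both ends, for 18.2%. These shares were not matched for score or length. At the starts the shift at MDM2 ranged from 10 bp to 690 bp, and at the ends from 32 bp to 1282 bp. The shift of 690 bp was at 0 Gy peaks 11 and 12, the block with the lowest scores at 0 Gy. The shift of 1282 bp was at 0 Gy peak 8, where 5 Gy peak 4 reached downstream.

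Division into separate peaks changed along with length. Of the 11 MDM2 peaks at 5 Gy, 4 lay over at least 2 peaks of 0 Gy, against 9.28% of the 5 Gy list. Of the 15 peaks at 0 Gy, 1 (peak 8) lay over 2 peaks of 5 Gy, against 4.79% of the 0 Gy list. Overlap with the other dose was found for 15 of 15 peaks at 0 Gy (58.1% in the list) and 9 of 11 at 5 Gy (73.0% in the list). The list shares for peaks over several of the other dose were not matched for score or length. Those for overlap rise with score. Of peaks scoring at least 1000, 99.5% at 0 Gy and 99.9% at 5 Gy overlapped the other list, and MDM2 had 6 such peaks at each dose. The 3 MDM2 peaks under 150 at 0 Gy also overlapped a 5 Gy peak, in a class where 35% of the list did. The single MDM2 peak under 150 at 5 Gy did not overlap a 0 Gy peak, in a class where 53.8% of the list did.

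**Figure D3:**
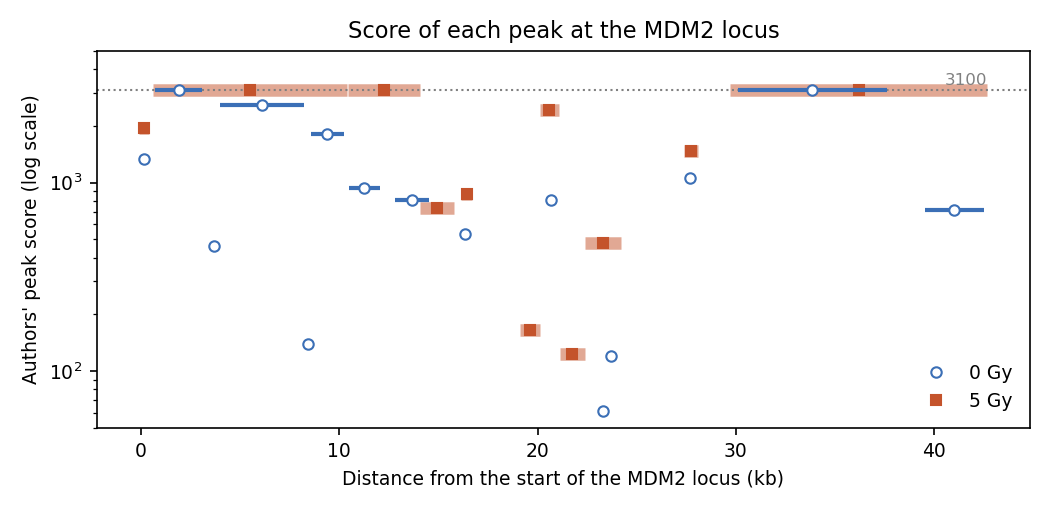
Authors' peak score (log scale) of each MDM2 peak against its distance in kb from the start of the locus, at 0 Gy (blue open circles, thin bars) and 5 Gy (red squares, thick bars), with bars spanning the peak. The dotted line marks 3100, the score at which many peaks of both lists are tied, though it is not the highest score of either list. The peaks tied there are 2 at 0 Gy and 3 at 5 Gy.

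The scores of MDM2 were high within each list. At 0 Gy they ran from 61.73 to 3100 with a median of 806.35, against a median of 136.64 for the list. At 5 Gy they ran from 123.58 to 3100 with a median of 1473.88, against 143.38. The tied score of 3100 was given to 2 MDM2 peaks covering 9897 bp at 0 Gy (38.8% of the covered length) and to 3 peaks covering 26372 bp at 5 Gy (75.7%). In the lists 5.18% of peaks at 0 Gy and 5.52% at 5 Gy had this score, and no order among them can be read. It was not the highest score of either list, as peaks tied at it had score rank 86 at 0 Gy and 71 at 5 Gy.

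In 4 places 1 MDM2 peak of each list lay only against the other, with scores below the tie. The score was 1328.34 at 0 Gy and 1945.24 at 5 Gy for the first peak of the locus, and 531.17 and 872.26 for 0 Gy peak 9. It was 805.85 and 2426.46 for peak 10, and 1054.67 and 1473.88 for peak 13. The 5 Gy score was the higher in 4 of 4, by a factor from 1.40 (peak 13) to 3.01 (peak 10). Across all such pairs of the lists with both scores under 3100, the 5 Gy score was the higher in 36.1%, and the median factor was 0.80 (quartiles 0.51 and 1.22). The pairs of the lists were not matched for score or length. Since scores grow with the unknown read depth, a factor between the doses is not a fold change in HuR binding.

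Outside the locus the peaks stopped on both sides. The nearest upstream peak ended 42.4 kb before the locus at 0 Gy (chr12:69158429-69159552, score 85.53) and 40.9 kb before it at 5 Gy (chr12:69159844-69161088, score 69.98). The 100 kb upstream held 4 peaks over 2285 bp at 0 Gy and 6 peaks over 4515 bp at 5 Gy, with highest scores of 184.15 and 118.30. These were far below the strong peaks of MDM2. Downstream, the nearest peak lay 394.1 kb away at 0 Gy (chr12:69638753-69639239, score 99.04) and 392.7 kb away at 5 Gy (chr12:69637360-69637936, score 100.82).

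The neighbouring coding genes in the RefSeq table of GRCh38 are SLC35E3 before MDM2 and CPM after it. MDM2 is 42515 bp long in that table, and the peaks at 5 Gy spanned 42752 bp from the first start to the last end. CPM, a membrane carboxypeptidase gene on the minus strand, overlaps the last 8490 bp of MDM2 in that table. Since the lists hold no strand, RNA of CPM and of MDM2 cannot be told apart in that overlap, which is part of the 3′ end of the locus. The rest of CPM, 112.8 kb in GRCh38, lies beyond MDM2. As CPM is on the minus strand, the overlap holds its 3′ end. Whether the peaks there hold RNA of CPM was not tested.

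Most regions rich in peaks at 0 Gy had less covered length at 5 Gy than at 0 Gy, whereas MDM2 had more. A region was formed by joining all peaks, of whichever list, at most 10 kb apart, and the MDM2 peaks formed a region of their own, chr12:69201881-69244632. Among 10958 regions with peaks at both doses, a covered length at least 1.2 times higher at 5 Gy was found in 21.8%. Among the 981 regions with at least 10 peaks at 0 Gy, it was found in 9.38%. These 981 were chosen on their peak number at 0 Gy and not at 5 Gy, which by itself favours low 5 Gy over 0 Gy ratios. Over all 10958 regions the median 5 Gy over 0 Gy ratio was 0.99 (quartiles 0.77 and 1.15). Of these, 85.0% had a lower ratio than MDM2 and 1640 a higher one. The median ratio in the 981 was 0.88 (quartiles 0.72 and 1.03), and 95.7% of them had a lower ratio than MDM2. A higher ratio than that of MDM2 was found in 41 of the 981.

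**Figure D4:**
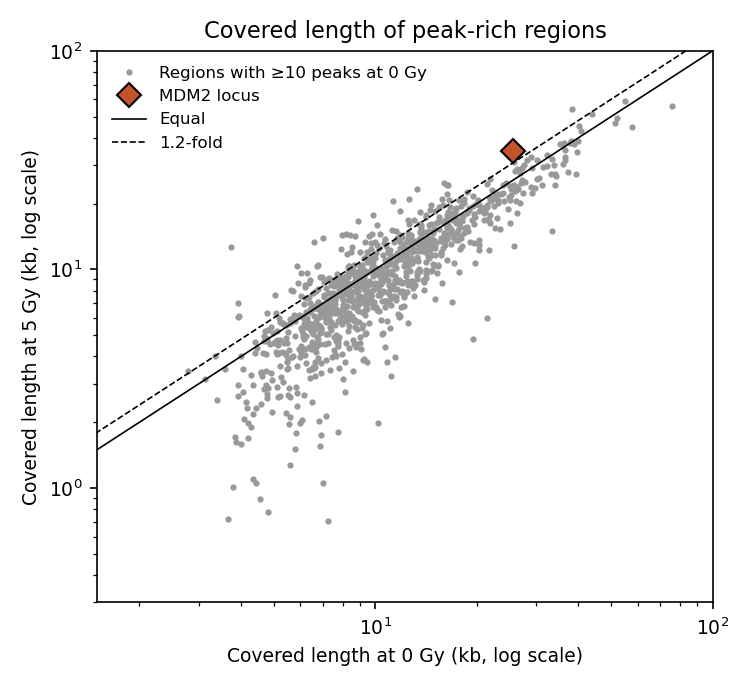
Covered length at 5 Gy against that at 0 Gy, in kb on log axes, for the 981 joined regions with at least 10 peaks at 0 Gy (grey) and MDM2 (red diamond, 25.5 kb at 0 Gy and 34.8 kb at 5 Gy). The solid line marks equal lengths and the dashed line a ratio of 1.2, and MDM2 lies above the dashed line.

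By the number of base pairs gained, MDM2 ranked 3 of 10958. Its gain of 9.32 kb followed those of chr17:62538264-62659165 (15.87 kb) and chr2:29117486-29171303 (9.90 kb). The region on chromosome 17 had 51 peaks at 0 Gy and 49 at 5 Gy, so it too had fewer peaks and more covered length. That on chromosome 2 had 22 at each dose. Their 5 Gy over 0 Gy ratios of covered length, 1.41 and 1.74, were both above the 1.37 of MDM2. MDM2 had fewer peaks and more covered length at 5 Gy, as did 19.3% of the 981 peak-rich regions. By covered length at 5 Gy it ranked 18 of the 981, and by that at 0 Gy it ranked 63.

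The share of the 0 Gy length that was also covered at 5 Gy was all but 1 bp at MDM2. The median of the 981 regions was 66.3%, 2 of them reached at least 99%, MDM2 included, and none had a higher share than MDM2. The regions most like MDM2 were sought by covered length at 0 Gy and by the 5 Gy over 0 Gy ratios of covered length and of peak number. The likeness was measured as the Euclidean distance on the log2 scale of these 3 quantities. The nearest, chr10:69773735-69835039, had a distance of 0.33 and a covered length of 28.1 kb at 0 Gy and 31.6 kb at 5 Gy. It was followed by chr3:160117285-160167781 (distance 0.35, 26.3 and 28.7 kb) and chr11:47487220-47585297 (distance 0.35, 27518 and 29998 bp). The last of the 5 nearest were chr20:3868701-3915029 (distance 0.38, 25.7 and 31.1 kb) and chr5:151149146-151191107 (distance 0.38, 26.7 and 28.4 kb). Their ratios of covered length ran from 1.06 to 1.21, against 1.37 at MDM2. Since that ratio was among the quantities that chose them, this does not set MDM2 apart. Of the 981 regions, 41 had a higher ratio than MDM2.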

How the data were processed

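Reads were processed by the authors with cutadapt 1.9.1 and Bowtie2 2.2.4 on hg19, per the submitters' processing notes. Peak names in the lists begin with MACS, a peak caller. The names of the deposited lists carry the values 1e-06, 10 and 30 without saying what they stand for. If the score is −10 log10 of a p-value, a score of 60 is a p of 1e-06. The caller's version and any further settings are not known here. The authors' deposited score of each peak was used as it stands, to rank peaks within a list and to set pairs of peaks side by side. Read depth is unknown, so no counting interval could be given. Starts were counted from 1. Overlaps (at least 1 bp), gaps, blocks and regions (peaks within 10 kb) were computed in Python 3.11.15 with pandas 2.3.3, and the counting was checked on simulated lists and with bedtools 2.31.1. Named are all peaks that overlap the locus, the nearest peak on each side, and the 5 regions most like the locus among those with at least 10 peaks at 0 Gy. The 2 regions of larger gain were named after their values were seen. The locus, the measures and the alternatives were chosen with earlier results of these data known. Exons, introns, UTRs and sequence under the peaks were not analysed here, and expression libraries of the study were not used.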

Additional observations from a re-analysis of the deposited data

How the results depend on the processing

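Over 13 alternatives applied to 9 results, 51 values were recomputed, of which 25 stayed within the set limits, 26 moved and 0 reversed. Only the ratio of covered length could be labelled as reversed. Requiring at least 50% of a peak within the locus, or widening the locus by 5 kb on each side, could change no value. All peaks lay almost wholly within the locus, and the nearest peak outside it was 40.9 kb away. The limits were 1.5 times for a count, the Wilson 95% interval for a length or share, and any change for the ratio. For a length, that interval treats each base as independent, which bases under the same peak are not. It served only as a set limit and measures no spread between libraries. With a score of at least 100, the covered length at 0 Gy was 25126 bp, the shared length 25125 bp and the 5 Gy over 0 Gy ratio 1.39, and taking equally many peaks from both lists gave these same 3 values. At scores of 1000 or more, 6 peaks were left at each dose, covering 16495 bp at 0 Gy and 28497 bp at 5 Gy, with 16495 bp shared, a ratio of 1.73, 1 peak at 5 Gy over several at 0 Gy, and 4 of 4 blocks wider at both ends at 5 Gy. Peaks within 100 bp joined gave 6 peaks and 35032 bp at 5 Gy. Peaks within 1 kb joined gave 7 peaks over 27249 bp at 0 Gy and 4 peaks over 35572 bp at 5 Gy, a ratio of 1.31. The share of regions past the fold (21.8%) was 23.3% with joining within 5 kb, 20.3% within 20 kb, 30.1% at a fold of 1.1, 11.6% at 1.5 and 9.38% in regions with at least 10 peaks at 0 Gy. The alternatives for the blocks were chosen after seeing the data. No paired analysis was possible because there is only 1 library per group. Unknown depth limits every comparison of the doses.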
